A study of Mus musculus with 11 samples.

Results

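A group of genes that promote or restrain calcification of the vessel wall was followed in the aorta of old mice, after 8 weeks of dietary nitrate or without it. They are Enpp1, Alpl, Ank, Mgp, Spp1, Bmp2, Bmp4, Grem1, Runx2 and Sost, 10 of the 36413 gene names on the array, and they were measured by 13 of its 55681 probes, each a single-stranded DNA of 60 bases. Every probe carrying one of these names in the files was taken, and no probe was left out for its values. The 10 genes were picked on earlier results of this same contrast, the nitrate minus control differences of these arrays, so that their differences between the groups are given as a description. No P value is given for them, intervals stand only for the error, and how many passed a threshold is counted only beside the share of all transcripts that did.

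Calcification of an artery is the deposition of calcium phosphate in its wall, and it is held back by inhibitors that vascular cells make themselves. Pyrophosphate outside the cell blocks the growth of mineral crystals: ENPP1 makes it from ATP, ANK lets ATP and pyrophosphate leave the cell, and tissue-nonspecific alkaline phosphatase, the product of Alpl, breaks it down. MGP and osteopontin, the product of Spp1, are secreted proteins that restrain mineral growth. The bone morphogenetic proteins BMP2 and BMP4 and the transcription factor RUNX2 drive bone-like programs, gremlin 1 (Grem1) binds and blocks BMPs, and sclerostin (Sost) blocks WNT signaling.

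The mice were male C57BL/6 at 20 months of age. Old nitrate treated mice drank water with sodium nitrate at 1 g/L for 8 weeks (n = 5). The controls were old mice (n = 6). Their water is described in the methods as holding sodium chloride, while the labels name none and call the control arrays a reanalysis of earlier samples. The descending aorta of each mouse was flushed, freed of periadventitial fat and hybridized to 1 one-color Agilent array. The methods describe 6 replicates of each group, while 5 nitrate arrays were available here. The arrays lay on 3 slides, each with both groups. Slide 1 held nitrate 1 and 2 with control 1 and 2. Slide 2 held nitrate 3 with control 4 and 6, and slide 3 held nitrate 4 and 5 with control 3 and 5. Every difference within slide 2 thus rests on a single nitrate array. All 6 control arrays were in the same column of their slide and no nitrate array was in that column, so that slide column and treatment cannot be told apart.

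Signals are given on the log2 scale after quantile normalization. The 75th percentile of the unnormalized signal lay between 212.8 and 288.7 per array, between 24760 and 28655 probes per array were detected, no analysed spot was saturated, and pairs of arrays correlated at 0.982 to 0.995. All 7 smooth muscle and all 6 endothelial markers were detected. The summed heart muscle markers stood at 15.10 in control 1 and 15.75 in nitrate 4, against 10.76 to 13.13 in the other arrays, and the summed smooth muscle markers at 19.04 in control 1, against 19.31 to 19.44 in the others. Of the 7 smooth muscle markers 1 was higher after nitrate at the threshold given below. The mean correlation of an array with the others was lowest for control 1 (0.985, the next 0.990). Summed adipocyte markers, all 8 detected, lay between 18.32 and 18.80 in the controls and between 17.95 and 18.34 after nitrate, and 3 of the 8 were lower after nitrate at that threshold. Brown adipocyte markers, all 5 detected with 1 of them lower, lay between 17.49 and 18.26 in the controls and between 16.75 and 18 after nitrate. No endothelial, fibroblast, heart or skeletal muscle marker passed. Summed endothelial markers were 12.66 to 12.97 and 12.52 to 12.89, fibroblast markers 16.54 to 16.87 and 16.64 to 16.98, and skeletal muscle markers, with Myh4 and Mylpf not above background on any array, 12.69 to 13.49 and 13.11 to 13.69, controls first. The array measures a whole tissue, and fewer cells of a type cannot be told apart from less RNA per cell.

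8 of the 10 genes, with 9 of the 13 probes, were detected, which asks for at least 5 arrays of 1 group with a spot that was both found and well above background. Spp1 and Runx2 did not meet this rule. A transcript is called differentially expressed here at a fold change above 1.2 and an unadjusted P value under 0.05 in limma, the level the study used. 2128 of the 23632 detected transcripts passed, which is 9.00%, with 4.16% higher and 4.85% lower after nitrate. With Benjamini-Hochberg adjustment 3 transcripts (0.0127%) passed at 0.05. Taking the brightest detected probe of each gene, 2 of the 8 detected genes passed the unadjusted threshold, Mgp and Grem1, both with higher signal after nitrate, and the dimmer of the 2 Enpp1 probes passed as well. Over the 8 genes the median difference was 0.10 log2 units and 6 were higher, against a median of 0.01 and 53.8% higher over all detected transcripts. As this contrast was known when the genes were picked, these counts are only a description. The genes on either side of the threshold were Mgp, just inside at a fold change of 1.21, and Enpp1 by its brighter probe, just outside at 1.17.

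3 of the genes had 2 probes each, and the probes of Enpp1 and Bmp4 gave unlike readings. The first 30 bases of 5 of these 6 probes are shown, as the files write them, because the probes of a gene differ in base composition and in place along the transcript. Positions are mm9, the build named in the files, and these probes lie on the minus strand.

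Enpp1 brighter probe: cagtgtgaagtgtttgactgtattccttcc

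Bmp4 brighter probe: caaccacctacacataccacacaaactgct

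Bmp4 dimmer probe: gacaaatatatttataactacatattaaaa

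Runx2 brighter probe: aaaggagggactatggcgtcaaacagcctc

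Runx2 dimmer probe: gcagcacgctattaaatccaaatttgccta

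The brighter Enpp1 probe (chr10:24358048-24358107, starting at base 6389 of its transcript) had a GC content of 41.7%. The 2 Bmp4 probes lay close together, the brighter at chr14:47003391-47003450 with 38.3% GC and the dimmer at chr14:47003198-47003257 with 15%. Those of Runx2 lay far apart, the brighter at chr17:44951128-44951187 with 55.0% GC and the dimmer at chr17:44744925-44744984 with 45.0%. Whether base composition, place or transcript variant bears on the readings was not tested.

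Among the genes of pyrophosphate metabolism, Enpp1 had higher signal after nitrate by both of its probes, while Ank and Alpl lay close to the controls. For Enpp1, which makes extracellular pyrophosphate, the brighter probe read 8.57, 8.56, 8.22, 8.53 and 8.62 in nitrate 1 to 5 and 8.13, 8.29 and 8.40 as the lowest, median and highest of the controls. 4 of the 5 nitrate arrays were above every control, and nitrate 3 lay among them. The means were 8.50 ± 0.16 (SD, n = 5) and 8.27 ± 0.10 (SD, n = 6), a difference of 0.22 (95% interval 0.04 to 0.41). Within slides 1, 2 and 3 the difference was 0.40, -0.09 and 0.22, so that it was not in one direction on every slide. The value of slide 2 rests on nitrate 3 alone.

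The dimmer Enpp1 probe read 5.27, 5.48, 5.26, 5.11 and 5.27 after nitrate and 4.27, 4.61 and 4.72 as the lowest, median and highest control. All nitrate arrays were above all controls, which held for 2.75% of detected transcripts in either direction and for 1.61% with the nitrate arrays higher. The means were 5.28 ± 0.13 (SD, n = 5) and 4.57 ± 0.16 (SD, n = 6), which is a difference of 0.71 (95% interval 0.51 to 0.91) or a fold change of 1.64. It was higher on every slide, by 0.95, 0.62 and 0.55. On all 11 arrays this probe stood well above background, but its spot was not found in control 1. The size of its difference depended on the treatment of low signals: with background corrected by the normexp method it was 0.24, no longer above the fold threshold, and with 16 units added to each signal 0.46. The 2 probes thus had the same direction and differed in size, with the mean of both at 0.47.

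For Ank, which exports ATP and pyrophosphate (chr15:27523965-27524024), the signal was 10.58, 10.47, 10.45, 10.60 and 10.66 after nitrate and 10.40, 10.52 and 10.88 as the lowest, median and highest control. The groups overlapped throughout, with a difference of -0.03 (95% interval -0.21 to 0.16). Alpl, whose enzyme hydrolyses pyrophosphate (chr4:137297658-137297716), read 8.12, 7.82, 7.78, 7.85 and 7.75 after nitrate and 7.53, 7.80 and 8.05 as the lowest, median and highest control. Only nitrate 1 was above every control. The difference was 0.07 (95% interval -0.17 to 0.32), and 0.01 without nitrate 1. The interval of Ank lay within a fold change of 1.2 either way, and that of Alpl reached beyond it on the higher side.

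**Figure D1:**
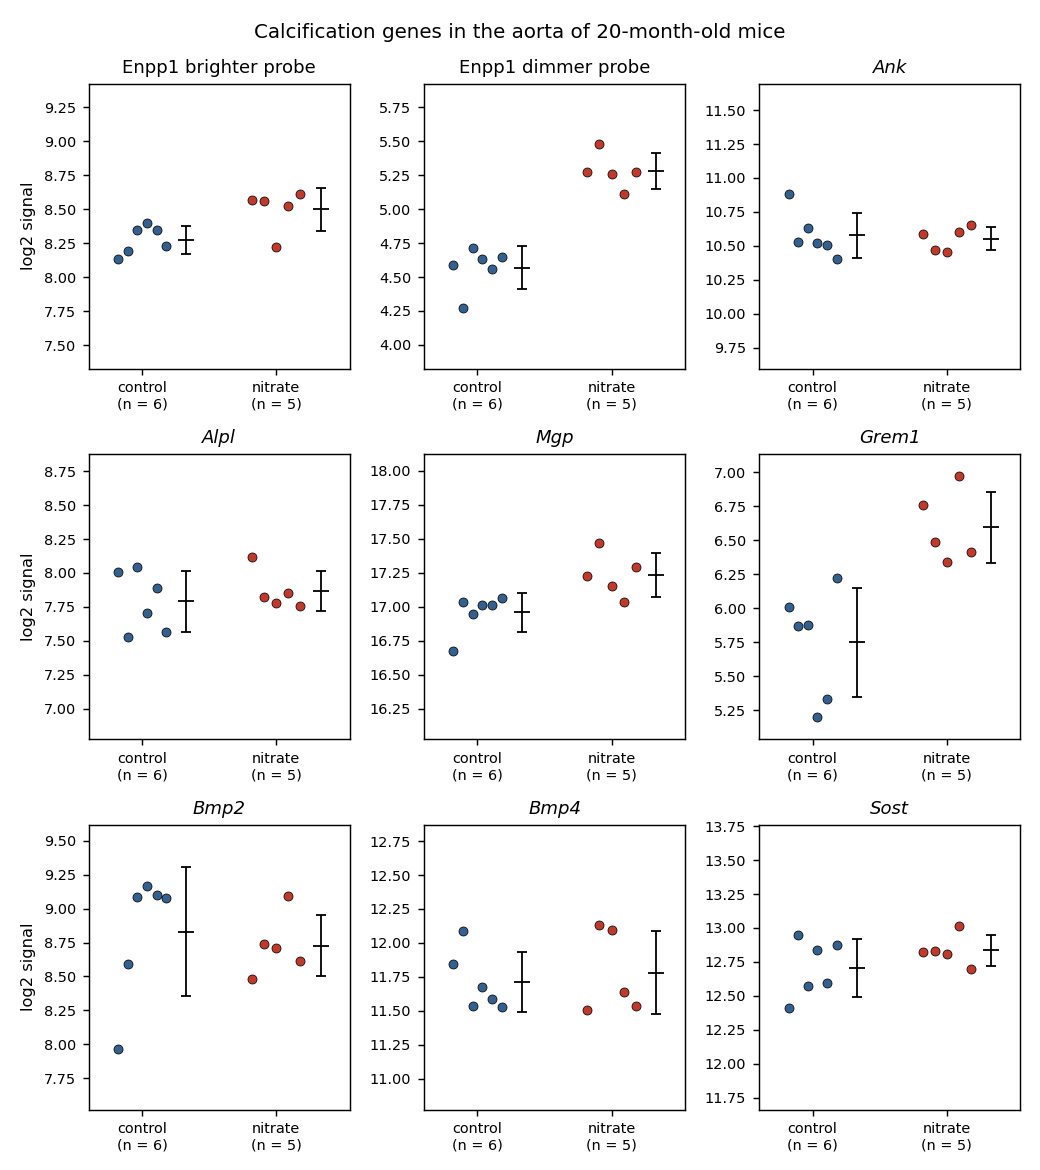
Log2 signal (vertical axes, each spanning the same number of log2 units) of the 9 detected probes in 6 control and 5 nitrate arrays. Each point is 1 mouse, in order of its replicate number, and the bar beside it is the mean ± SD. The groups do not overlap for the dimmer Enpp1 probe and for Grem1, and control 1, the first control point, is the lowest control for the brighter Enpp1 probe, Mgp, Bmp2 and Sost.

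Of the secreted mineral-binding inhibitors, Mgp was higher after nitrate by a small amount and Spp1 was too dim to be measured on every array. Mgp, which encodes a vitamin K-dependent inhibitor made by smooth muscle (chr6:136821125-136821184), read 17.22, 17.47, 17.15, 17.03 and 17.29 after nitrate and 16.67, 17.01 and 17.06 as the lowest, median and highest control. 4 nitrate arrays were above every control and nitrate 4 was not. The means of 17.23 ± 0.16 (SD, n = 5) and 16.96 ± 0.14 (SD, n = 6) differed by 0.28 (95% interval 0.07 to 0.48), and the differences within the slides were 0.49, 0.11 and 0.18. The lowest control was control 1, the array with the low smooth muscle and high heart muscle markers, and their part in the difference was not tested. The fold change was under 1.2 when control 1 was left out (a log2 difference of 0.22), without nitrate 2 (0.22) or nitrate 5 (0.26), and with 75th percentile scaling (0.26) or normexp (0.23).

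For Spp1, which encodes osteopontin, a protein of bone and of macrophages (chr5:104868502-104868561), a spot both found and well above background was present on 3 of 5 nitrate and 3 of 6 control arrays. The signal was 5.54, 6.86, 5.54, 3.62 and 5.10 after nitrate and 2.86, 4.61 and 4.67 as the lowest, median and highest control. 4 nitrate arrays were above every control and nitrate 4 was below most of them. The means were 5.33 ± 1.16 (SD, n = 5) and 4.17 ± 0.76 (SD, n = 6), and their difference of 1.16 had a 95% interval of -0.04 to 2.37 in a fit over all probes. Within the slides the difference was 2.07, 1.83 and -0.30, and over all alternatives other than leaving out single arrays it ran from 0.36 to 1.69. Spp1 is also made by macrophages, whose 8 markers on the array were all detected with 0 passing the threshold, and whose summed level was 13.15 to 13.41 in the controls and 12.73 to 13.55 after nitrate.

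In the BMP pathway the largest difference among the 8 detected genes was in an antagonist, Grem1, while both ligands overlapped between the groups. Grem1 (chr2:113589227-113589286) read 6.76, 6.49, 6.34, 6.97 and 6.41 in nitrate 1 to 5 and 5.20, 5.87 and 6.22 as the lowest, median and highest control. Every nitrate array was above every control. The means were 6.59 ± 0.26 (SD, n = 5) and 5.75 ± 0.40 (SD, n = 6), a difference of 0.85 (95% interval 0.43 to 1.26) or a fold change of 1.80. On the 3 slides it was higher by 0.69, 0.63 and 1.09. With 1 array left out the difference lay between 0.73 and 0.94, and with normexp it was 0.46.

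Bmp2, an osteogenic ligand (chr2:133388260-133388319), read 8.48, 8.74, 8.71, 9.09 and 8.62 after nitrate and 7.97, 9.08 and 9.17 as the lowest, median and highest control. 4 of the 6 controls lay close together at the top of the range, and the lowest was control 1. The means were 8.73 ± 0.23 (SD, n = 5) and 8.83 ± 0.47 (SD, n = 6), with a difference of -0.10 (95% interval -0.56 to 0.35), and the slides gave 0.33, -0.41 and -0.24. Without control 4 the difference was -0.04 and without control 1 it was -0.28. Without control 1 and nitrate 4, the arrays with the highest heart muscle markers, it was -0.37. That last setting was chosen after seeing the data.

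Bmp4, by its brighter probe, read 11.51, 12.13, 12.10, 11.64 and 11.53 after nitrate and 11.53, 11.63 and 12.09 as the lowest, median and highest control. Nitrate 1 was below every control and nitrate 2 and 3 above every control, all by narrow margins, so that the nitrate arrays spanned the whole control range. The difference was 0.07 (95% interval -0.25 to 0.39). With 1 array left out it ran from -0.02 (without nitrate 2) to 0.15 (without control 2). The dimmer Bmp4 probe was not well above background on any of the 11 arrays, with signals of 2.16 to 2.38, so that it gave no second reading.

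Runx2, the osteogenic transcription factor, could not be measured in these aortas. Its dimmer probe was above background on 0 of 11 arrays (2.16 to 3.75). Its brighter probe was above background only in nitrate 5, at 4.92, and read 2.20 to 3.77 on the other arrays, so that no fold change is given.

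Sost, which encodes the WNT antagonist sclerostin, known mainly from osteocytes (chr11:101824067-101824126), was detected on all 11 arrays. It read 12.82, 12.83, 12.81, 13.02 and 12.70 after nitrate and 12.41, 12.72 and 12.95 as the lowest, median and highest control. 4 of the 5 nitrate arrays were above the control median, and nitrate 4 alone was above every control. The means were 12.83 ± 0.11 (SD, n = 5) and 12.71 ± 0.21 (SD, n = 6), a difference of 0.13 (95% interval -0.10 to 0.35), which was 0.07 without control 1. Among 7 osteoblast and osteocyte markers 3 were detected, and Bglap, Bglap2, Dmp1 and Sp7 were not above background on any array. Their summed level was 8.04 to 8.56 in the controls and 8.08 to 8.58 after nitrate.

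**Figure D2:**
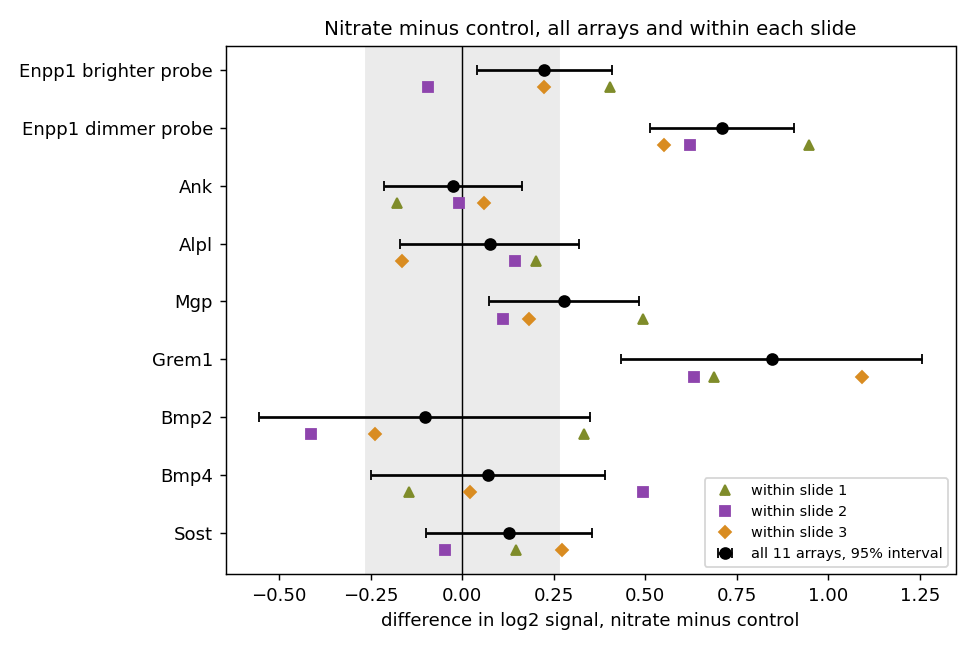
Difference in log2 signal, nitrate minus control (horizontal axis), for the 9 detected probes. Black points with bars are the difference over all 11 arrays with its 95% interval, colored symbols are the differences within slides 1, 2 and 3, and the grey band is a fold change of up to 1.2. Slide 2 held only 1 nitrate array, nitrate 3. The dimmer Enpp1 probe and Grem1 lie outside the band on every slide, Mgp lies inside it on 2 of the 3 slides, and the slides differ in direction for the brighter Enpp1 probe, Ank, Alpl, Bmp2, Bmp4 and Sost.

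**Figure D3:**
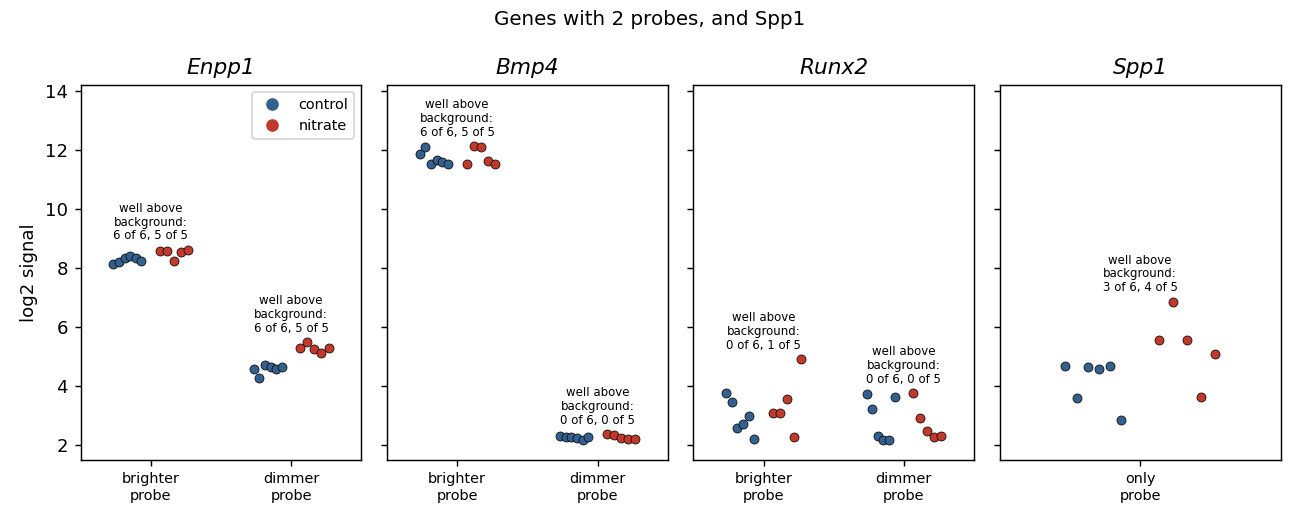
Log2 signal (vertical axis) of both probes of Enpp1, Bmp4 and Runx2 and of the single Spp1 probe, with each point 1 array. The text above each probe gives the number of control and then nitrate arrays on which it was well above background. Enpp1 was measured by both probes, Bmp4 by 1, and Runx2 by neither in the controls.

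To set the 10 genes in their surroundings, 80 other genes of mineralization were sorted into 6 lists by role, with the brightest detected probe standing for each gene. These lists too were drawn up with earlier results of the contrast known, so that the P values below are not independent evidence. 64 of the 80 were detected. 8 of the 64 rose and 1 fell at the unadjusted threshold, 14.1% in all beside the 9.00% of all detected transcripts, and none passed with Benjamini-Hochberg adjustment in limma, the smallest adjusted P value being 0.152. The counts of the single lists below, with 9 to 16 detected genes each, stand beside that same 9.00% and are a description. Of the 8 that rose, Acan met the detection rule only through the nitrate group and did not pass without a detection filter. 48 of the 64 were higher after nitrate, with a median difference of 0.10, beside 53.8% higher and a median of 0.01 over all detected transcripts. All 7 smooth muscle markers (differences of 0.03 to 0.31) and all 6 fibroblast markers (0.05 to 0.25) were higher after nitrate too, and their part in the shift of the pathway genes was not tested. In 4 of them all nitrate arrays were above all controls (Dlx5, Bmpr1a, Twsg1 and Slc29a1), which is 6.25%, beside 1.61% of all detected transcripts in that direction. Without control 1, only Dlx5 and Wif1 passed among those higher, while Ppa1 stayed the only one lower.

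In pyrophosphate and phosphate handling 3 of 11 detected genes passed the threshold, and the median of the list was 0.12. Nt5e and Entpd1, whose ectoenzymes break down extracellular nucleotides, rose by 0.42 (6.97 ± 0.29 against 6.55 ± 0.29 SD) and 0.32 (9.54 ± 0.21 against 9.22 ± 0.17 SD), and neither passed without control 1. Entpd1 also did not pass without nitrate 1, and Nt5e did not pass without control 6, nitrate 4 or nitrate 5, or with normexp (0.25). Ppa1, an intracellular pyrophosphatase, fell by 0.33. It read 12.42, 12.69, 12.42, 12.76 and 12.80 after nitrate and 12.74, 12.96 and 13.17 as the lowest, median and highest control, so that the groups overlapped by a narrow margin. Ppa1 was lower on each slide, by -0.41, -0.49 and -0.18 as nitrate minus control, and passed under all alternatives. Slc29a1, a nucleoside transporter, was higher without overlap (12.40 ± 0.13 against 12.15 ± 0.08 SD) at a fold change of 1.19, under the threshold, and is named after its values were seen.

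Among the mineral-binding and vitamin K-dependent proteins 2 of 9 detected genes rose, with a list median of 0.10. Gas6, a vitamin K-dependent ligand, rose by 0.27 (15.05 ± 0.12 against 14.78 ± 0.23 SD), and Ahsg, which encodes the circulating calcification inhibitor fetuin-A, by 0.31 (9.20 ± 0.25 against 8.89 ± 0.23 SD). Control 1 was the lowest control for Gas6, which did not pass without it (0.18), without nitrate 2, 3 or 4, with 75th percentile scaling (0.23) or with normexp (0.26). Ahsg passed in only 4 of 11 fits with 1 array left out and did not pass with slide as a block (0.28). Ahsg is a liver gene.

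Among BMP ligands, receptors and effectors 0 of 16 detected genes passed the fold and P thresholds in limma, and among BMP antagonists 0 of 9. Their medians were 0.05 and 0.04. The smallest P value of the first list was that of the receptor gene Bmpr1a (0.25 higher, unadjusted P = 0.0373, adjusted P = 0.322 in limma), which was above every control in all nitrate arrays at a fold change of 1.19. The smallest of the second was that of Twsg1, which encodes a BMP-binding protein (0.21 higher, unadjusted P = 0.0240, adjusted P = 0.292 in limma). For both, control 1 was the lowest control, and without it the differences were 0.15 each. Bmpr1a, at up to 0.28, passed both thresholds in 5 of the 11 fits with 1 array left out, while Twsg1 passed in 0. The BMP target genes Id1, Id2 and Id3, named after their values were seen, differed by -0.30, 0.09 and -0.08, and none passed. A second probe disagreed with the brighter one for the receptor gene Bmpr1b (0.32, past the threshold, against 0.15) and for the antagonist Chrdl1 (0.43, past the threshold, against 0.05).

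Among WNT receptors and antagonists 2 of 9 detected genes rose, Wif1 and Dkk3, and the median was 0.12. Wif1 read 10.86, 11.12, 11.35, 11.14 and 11.06 after nitrate and 10.41, 10.65 and 10.94 as the lowest, median and highest control. 4 nitrate arrays were above every control. The means of 11.11 ± 0.17 (SD, n = 5) and 10.65 ± 0.21 (SD, n = 6) differed by 0.45 (unadjusted P = 0.00187, adjusted P = 0.156 in limma), with 0.41, 0.64 and 0.43 on the slides. Dkk3 rose by 0.30 (14.45 ± 0.16 against 14.15 ± 0.22 SD), which was 0.23 and under the fold threshold without control 1, and 0.25 without nitrate 2, also not past the threshold.

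In the list of osteochondrogenic factors and matrix 2 of 10 detected genes rose, and the median was 0.17. Dlx5, a homeobox transcription factor of bone formation, read 6.59, 6.13, 5.92, 6.36 and 6.14 after nitrate and 4.64, 5.55 and 5.86 as the lowest, median and highest control, without overlap. Its means of 6.23 ± 0.26 (SD, n = 5) and 5.40 ± 0.44 (SD, n = 6) differed by 0.83, a fold change of 1.78 (unadjusted P = 0.00145, adjusted P = 0.152 in limma). The slides gave 0.64, 0.84 and 0.85. With normexp the difference of Dlx5 was 0.34, still past the threshold. Its probe was dim, found and well above background on 5 of 5 nitrate and 5 of 6 control arrays. Without control 6, the lowest control, the difference was 0.68, also past the threshold. Acan, which encodes the cartilage proteoglycan aggrecan, rose by 0.41 (8.60 ± 0.29 against 8.19 ± 0.36 SD), but its differences on the slides were 0.51, -0.29 and 0.82, and it passed in 4 of 11 fits with 1 array left out. It met the detection rule only through the nitrate group, with a spot found and above background on 5 of 5 nitrate and 4 of 6 control arrays. Without a detection filter Acan did not pass. Acan was the only 1 of 4 detected chondrocyte markers to pass, and the summed level of these markers was 8.56 to 9.41 in the controls and 9.08 to 9.56 after nitrate.

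16 genes of the 6 lists were not detected. Abcc6, which encodes a transporter needed for ATP release, the osteoblast genes Sp7 and Bglap, and the hypertrophic cartilage gene Col10a1 were not above background on any array. Nog, Chrd, Lrp4, Pth1r and Vkorc1l1 were well above background on all 11 arrays and missed the rule only because their spots were not found on enough of them. Of these, Vkorc1l1, an enzyme gene of the vitamin K cycle named after its values were seen, differed by -0.27 as nitrate minus control in the fit over all probes.

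**Figure D4:**
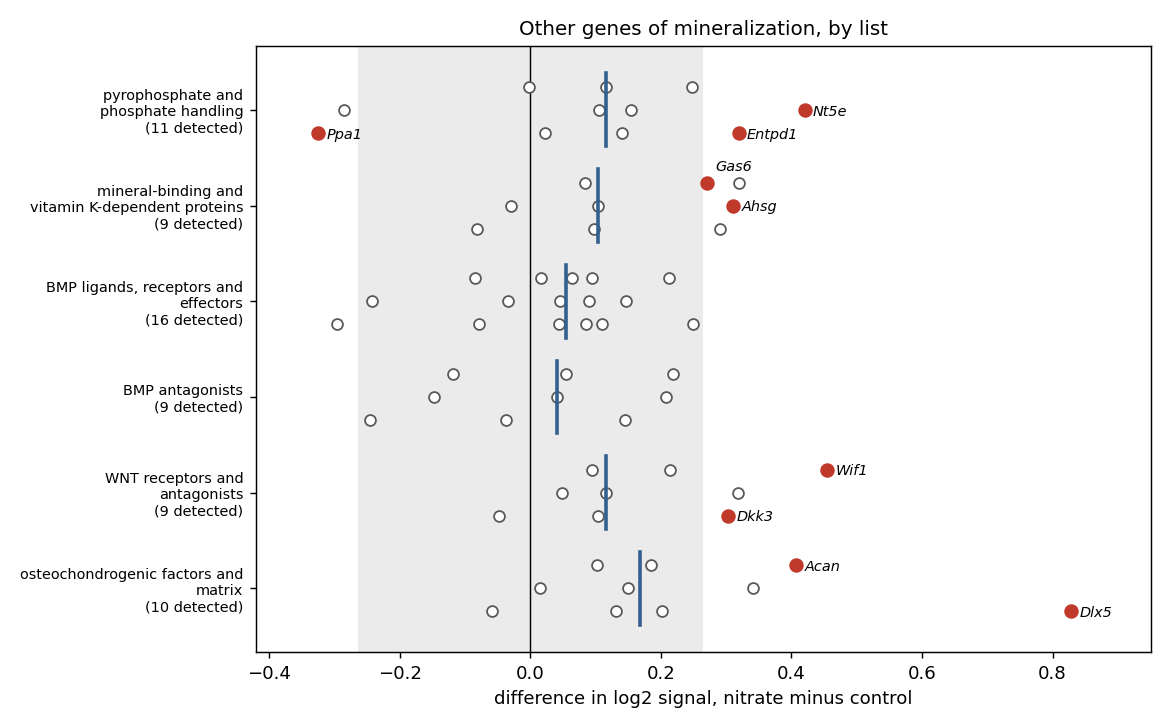
Difference in log2 signal, nitrate minus control (horizontal axis), of the 64 detected genes in 6 lists. Filled and named points passed the unadjusted threshold, open points did not, blue lines are list medians and the grey band is a fold change of up to 1.2. The list medians lie between 0.04 and 0.17, and 8 of the 9 filled points lie to the right of the band.

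Whether the 8 detected genes of the 10 varied together from mouse to mouse was examined in 28 pairs, with each group centred on its own mean and brightest probes used. In a two-sided exact permutation test over the 86400 pairings within groups, 2 pairs fell under 0.05 unadjusted and 0 after Benjamini-Hochberg adjustment. Ank and Mgp had the smallest P value (r = -0.70, n = 11, exact permutation P = 0.0352, adjusted 0.412), with a rank correlation of -0.51 (exact permutation P = 0.136, adjusted 0.764). Without the 2 arrays farthest from the median of Ank it was -0.51, with slide means removed -0.78, and without control 1 -0.34. Ank and Sost followed (r = -0.66, n = 11, exact permutation P = 0.0431, adjusted 0.412), with a rank correlation of -0.49 (exact permutation P = 0.158, adjusted 0.764). This value was -0.20 without the 2 farthest arrays, -0.61 with slide means removed and -0.34 without control 1, so that it rested on those arrays. Alpl and Sost gave r = -0.69 (n = 11, exact permutation P = 0.0543, adjusted 0.412) and a rank correlation of -0.50 (exact permutation P = 0.164, adjusted 0.764), with -0.78 without the 2 farthest arrays and -0.63 with slide means removed. None of the 28 pairs was thus shown to vary together at this number of mice, and pairs with Spp1 or Runx2 were not examined.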

How the data were processed

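RNA of the aorta of 5 old nitrate treated and 6 old control mice was hybridized to Agilent SurePrint G3 mouse arrays, 1 mouse per array. The authors deposited spot intensities from Feature Extraction 10.7.1.1 with their quality flags, background-subtracted but not brought to one scale between arrays, and a table of log2 values that GeneSpring had quantile normalized and centred on the median of the samples. That log2 table was used as an alternative. Its columns correlated with the centred scanner values of the same arrays at 0.99994 to 0.99999, and 9 of its 11 column medians were 0, the others being -0.0088 and -0.027. Scale, centring and direction were thus settled.

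Processed signals under 1 were set to 1 before log2 values were taken. Control spots and outlier-flagged spots were dropped, replicate spots averaged, and the 11 arrays quantile normalized. A probe detected on 5 or more arrays of a group entered lmFit and eBayes (limma 3.58.1, R 4.3.3), at the thresholds of the study (fold change above 1.2 and unadjusted P value under 0.05) and with Benjamini-Hochberg adjustment over all 23632. Probes outside the detection rule were fitted together with all probes. Intervals are 95% intervals of that fit. The number of arrays limits the precision. The fits were also run on simulated data with independent noise, which do not hold the slide, column or tissue differences of these arrays. No result here rests on them.

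The brightest detected probe stood for a gene. The sequence and position of the dimmer Enpp1 probe are not reported here. The 10 genes, the 6 pathway lists and the 10 marker lists were chosen with earlier results of these data known. Named were the 10 genes, each pathway gene past the threshold, the gene with the smallest P value in a list without one, and the 3 pairs with the smallest P value where none passed. A marker level is log2 of the summed linear signal. Gene names were taken as the files give them, and Emr1 is the older name of Adgre1. Alternatives were 75th percentile scaling, normexp background correction with offset 50, an added 16, the deposited log2 table, other detection rules, flagged spots kept, a trended robust prior, slide or replicate number as a block, the mean of all detected probes, and each array left out. Leaving out control 1 and nitrate 4 together was chosen after seeing the data. The replicate numbers did not pair the arrays: deviations of same-numbered arrays correlated at 0.01, 0.12, -0.14, -0.13 and 0.18.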

Additional observations from a re-analysis of the deposited data

Results flagged for a closer look

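In 10 of 62 groups of 5 or 6 arrays examined for 1 value far from the rest, the lowest or highest array stood apart by Dixon's ratio, the gap to its nearest neighbor divided by the range of the group. Chance alone gives about 1 in 20 groups. Nothing was tested about why these values stand apart.

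Among the calcification genes, nitrate 1 was high for Alpl (8.12, the next 7.85, ratio 0.730). Nitrate 3 was low for the brighter Enpp1 probe (8.22, the next 8.53, ratio 0.772), and control 2 was low for the dimmer Enpp1 probe (4.27, the next 4.56, ratio 0.656). For Mgp, control 1 was low (16.67, the next 16.95, ratio 0.694).

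The other 6 were all in control 1. It was low for Gas6 (14.32, the next 14.81, ratio 0.754), Bmpr1a (10.29, the next 10.82, ratio 0.865), Twsg1 (10.76, the next 11.05, ratio 0.724) and the summed smooth muscle markers (19.04, the next 19.31, ratio 0.702). It was high for the summed brown adipocyte markers (18.26, the next 17.69, ratio 0.735) and heart muscle markers (15.10, the next 12.04, ratio 0.704).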

How the results depend on the processing

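No difference of a gene past the threshold changed direction under any alternative. Grem1 moved from 0.85 to 0.46 with normexp, the dimmer Enpp1 probe from 0.71 to 0.24 with normexp and 0.46 with an added 16, and the mean of both Enpp1 probes was 0.47 against 0.22 for the brighter probe. Spp1 and Runx2 were outside the tested set, so that 8 of the 10 genes could pass. Grem1 passed under every alternative. Mgp did not pass with 75th percentile scaling or normexp, nor without control 1, nitrate 2 or nitrate 5. With 1 array left out 1 to 3 of the 8 genes passed, beside 1596 to 2424 of all transcripts. With the mean of all detected probes Enpp1 passed as well, and without control 1 and nitrate 4 together Bmp2 passed as well. Of the pathway genes, 8 higher became 2 without control 1 and nitrate 4 together, 5 without nitrate 4, and between 2 (without control 1) and 11 (without nitrate 3) with 1 array left out. The 1 lower became 2 without control 1 and nitrate 4, without a detection filter, and with the replicate block or the slide block, and was 1 to 2 with 1 array left out (2 without control 6). Over all transcripts 2128 became 3224 without a detection filter, where more probes were tested, 1218 with normexp, and 1596 to 2424 with 1 array left out. Blocks on slide or replicate number ended the call of Ahsg (0.28 and 0.29). With the replicate number as a block 2 of the 8 detected genes, 7 pathway genes higher and 2433 transcripts passed. The r of Ank and Mgp, Ank and Sost, and Alpl and Sost was -0.60, -0.57 and -0.36 with the replicate block, and -0.37, -0.68 and -0.67 with 75th percentile scaling. The cause of these shifts was not tested. Spp1 and Runx2 were limited by signal near background.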
